A study of Mus musculus with 2 samples.

Results

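The 33 genes described here serve glycolysis, the carriage of glucose and lactate, and the response of cells to low oxygen. They were chosen by symbol for these roles, with no measured value in the rule, and every symbol was found among the 32285 mouse genes counted. The choice was made with earlier results of these data known. Of the 33 genes, 20 act in transport or glycolysis, and 13 belong to the hypoxia-inducible factor (HIF) pathway or are known targets of it.

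RNA was counted in immune cells sorted with CD45 beads from subcutaneous tumors in the right flank of nude mice, grown from the human osteosarcoma line 143B. The mice were female and 4 weeks old when randomized, and nude mice lack T cells but keep their myeloid cells. Each group gave 1 single-cell library from a set of 3 tumors, either with control IgG, a human IgG1 isotype antibody, or with anti-CD3L1, both at 10 mg/kg. Which tumor a cell came from is not recorded, so the variation between tumors cannot be estimated, the groups could not be tested against each other, and the intervals given here cover counting error alone.

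Glycolysis splits glucose into pyruvate and yields a small amount of ATP without oxygen, and lactate dehydrogenase and a lactate carrier then dispose of the product. When oxygen is low, the prolyl hydroxylases that mark HIF-1α for destruction slow down, and the stabilized factor raises the transcription of glucose transporters, most glycolytic enzymes and genes such as Bnip3, Pdk1 and Egln3. Neutrophils rely on glycolysis for energy, and inflammatory monocytes and macrophages raise it on activation.

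HIF binds short sites with the core ACGTG or GCGTG in the promoters of its targets, and the promoters of the 6 members that were lower in neutrophil-like, monocyte-like and macrophage-like cells after anti-CD3L1 are therefore shown. No share of all genes lower in all 3 classes was computed, so the number 6 stands without a background. Of these members, Ddit4, Ero1l, P4ha1 and Pfkl came short of at least 1 of these calls under other settings given below. Each promoter shown is the run of 250 bases before a start of transcription in RefSeq (build GRCm38.p6), written 5′ to 3′ on the strand of the gene. Capitals mark ACGTG, which reads CACGT when it lies on the other strand, so that the letters CACGTG hold a match on both strands. The windows are those of Bnip3 (chr7:138909507-138909756, minus strand), Ddit4 (chr10:59951771-59952020, minus strand), Ero1l, named Ero1a in RefSeq (chr14:45318573-45318822, minus strand), P4ha1 (chr10:59323046-59323295, plus strand), Pfkfb3, 1 of its 2 windows (chr2:11553930-11554179, minus strand), and Pfkl (chr10:78009808-78010057, minus strand).
Bnip3: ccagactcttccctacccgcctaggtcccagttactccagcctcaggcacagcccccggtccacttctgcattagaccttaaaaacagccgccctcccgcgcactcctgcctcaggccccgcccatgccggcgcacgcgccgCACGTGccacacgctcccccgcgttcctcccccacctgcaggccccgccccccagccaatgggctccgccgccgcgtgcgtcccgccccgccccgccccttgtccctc
Ddit4: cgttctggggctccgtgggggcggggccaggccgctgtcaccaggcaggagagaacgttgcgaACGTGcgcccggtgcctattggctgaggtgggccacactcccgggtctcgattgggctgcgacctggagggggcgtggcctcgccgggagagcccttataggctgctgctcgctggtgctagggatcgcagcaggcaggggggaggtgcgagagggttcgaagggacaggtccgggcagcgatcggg
Ero1l: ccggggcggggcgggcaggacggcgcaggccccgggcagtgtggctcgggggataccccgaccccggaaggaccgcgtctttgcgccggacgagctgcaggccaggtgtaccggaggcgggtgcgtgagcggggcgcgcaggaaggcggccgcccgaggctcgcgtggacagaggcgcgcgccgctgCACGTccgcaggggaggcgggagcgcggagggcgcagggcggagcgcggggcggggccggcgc
P4ha1: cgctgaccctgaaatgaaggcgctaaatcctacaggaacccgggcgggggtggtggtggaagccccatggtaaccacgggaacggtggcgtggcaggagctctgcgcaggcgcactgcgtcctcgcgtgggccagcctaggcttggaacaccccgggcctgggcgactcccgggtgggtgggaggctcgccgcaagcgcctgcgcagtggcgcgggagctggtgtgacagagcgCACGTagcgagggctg
Pfkfb3: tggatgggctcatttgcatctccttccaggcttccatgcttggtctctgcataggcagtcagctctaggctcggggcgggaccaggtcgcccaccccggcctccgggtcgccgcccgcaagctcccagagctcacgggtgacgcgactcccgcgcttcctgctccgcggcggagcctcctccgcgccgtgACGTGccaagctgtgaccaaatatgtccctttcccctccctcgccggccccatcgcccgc
Pfkl: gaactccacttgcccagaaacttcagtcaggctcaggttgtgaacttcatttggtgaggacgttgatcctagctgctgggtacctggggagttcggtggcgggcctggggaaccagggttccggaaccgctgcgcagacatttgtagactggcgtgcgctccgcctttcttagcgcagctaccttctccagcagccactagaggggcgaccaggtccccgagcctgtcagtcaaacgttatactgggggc
Bnip3 held the CACGTG palindrome, Ddit4, Ero1l, P4ha1 and Pfkfb3 held 1 match of ACGTG each, and Pfkl held none. GCGTG is not marked, and each of the 6 genes, Pfkl among them, held it on either strand of at least 1 window. A window was found for 30 of the 33 members, not for Slc2a3, Bnip3l and Ndrg1. ACGTG lay on either strand of a window in 19 of these 30 genes (63.3%), against 4998 of all 27025 genes with a window (18.5%) and 1579 of the 5783 matched genes that were tested in monocyte-like cells (27.3%). Among the HIF and hypoxia members it was 9 of 11 genes, and among the members of transport and glycolysis 10 of 19. Of the members lower in monocyte-like cells, 15 of 19 held ACGTG, and of those tested and not lower, 3 of 7. For GCGTG the shares were 11 of 19 and 4 of 7, with 30.9% of all genes and 52.1% of the tested genes. The median GC content of the members' windows was 62.8%, that of the tested genes 60.4% and that of all windows 52.4%. It was 66.4% over the 27 windows of members lower in monocyte-like cells and 55.2% over the 9 windows of those not lower. These 2 sets thus differed in GC content and in windows, and the part of this in their ACGTG shares was not tested. A match describes the letters of the window and is not a measured site of HIF binding. The members were chosen with known HIF targets among them, so these shares are no independent test of a link to HIF. Whether the falls are linked to HIF was not tested.

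The control IgG library held 74850604 unique molecular identifiers (UMIs, 1 per captured RNA molecule) and the anti-CD3L1 library 108246719. A barcode was kept as a cell with at least 500 UMIs, more than 200 and fewer than 6000 genes and under 5% mitochondrial UMIs, which left 8557 and 11269 cells with medians of 5526 and 8267 UMIs. Both libraries held the same barcode for 26 cells. Cells were placed in a class by the UMIs of marker genes, with at least 3 markers detected, and are called neutrophil-like and so on because no cell types came with the counts. In the control IgG library 5611 cells were neutrophil-like, 1166 monocyte-like, 421 macrophage-like, 145 NK-like and 35 dendritic-like, and in the anti-CD3L1 library 487, 2746, 3874, 844 and 392. The markers of each of these 5 classes were all detected in that class in both libraries. The gates used these same markers, and summed cells of a class also held markers of other classes, so this is no test of the class names. The threshold of the macrophage gate counted UMIs of C1qa, C1qb and C1qc only, while all macrophage markers counted as markers detected. A cell past this gate was not called monocyte-like, so cells that met both of these gates stayed macrophage-like. Apart from this pair, cells that met several gates, 284 and 467, were left out of the classes as possible doublets. Over all cells of a library, whatever their class, 1348 and 2023 cells held 1 to 2 times the monocyte threshold. Another 1396 and 1832 cells fell short of it by up to a factor of 2. These counts leave out the rule on markers detected and the rule that cells past the macrophage gate were not monocyte-like. With the gates doubled, 963 and 2166 cells stayed monocyte-like. Levels are CPM, the UMIs of a gene or of the summed module per 1000000 UMIs of all genes in the cells of a class, with no correction for gene length. Where 2 values stand together, the control IgG value comes first. Ratios are log2 of anti-CD3L1 over control IgG with an exact binomial 95% interval, and a gene with a mean of at least 10 CPM and at least 50 UMIs in a class was tested and called higher or lower at 1.5-fold or more. The mean is over both libraries, so a gene under 10 CPM in 1 library could pass through its level in the other. This held for the lower calls of Ddit4 in monocyte-like and macrophage-like cells, Egln3 in monocyte-like cells and Pdk1 and Ankrd37 in neutrophil-like cells.

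In the control IgG library, the summed module was highest in neutrophil-like cells, and it was lower after anti-CD3L1 in neutrophil-like and monocyte-like cells. Neutrophil-like cells held 10181 (10146 to 10216) CPM of the 33 genes with control IgG and 6694 (6549 to 6842) CPM with anti-CD3L1, a log2 ratio of -0.60 (-0.64 to -0.57). Monocyte-like cells held 7768 (7723 to 7813) and 4756 (4728 to 4784) CPM, a log2 ratio of -0.71 (-0.72 to -0.70). Macrophage-like cells held 5404 (5344 to 5465) and 4837 (4815 to 4859) CPM, a log2 ratio of -0.16 (-0.18 to -0.14). The falls in neutrophil-like and monocyte-like cells were 1.52-fold and 1.63-fold, and the macrophage-like values lay 1.12-fold apart. The neutrophil-like fall was just past 1.5-fold and came short of it without Gapdh (-0.56), with clusters in place of gates (-0.58) and as a mean over cells of each cell's own share (-0.52). NK-like cells held 3759 and 3539 CPM, a log2 ratio of -0.087 (-0.13 to -0.048), and dendritic-like cells 3571 and 3545 CPM, a log2 ratio of -0.011 (-0.079 to 0.058). The level therefore ran from neutrophil-like over monocyte-like and macrophage-like to NK-like and dendritic-like cells with control IgG, and with anti-CD3L1 the monocyte-like and macrophage-like levels lay within 1.02-fold of each other. Over all cells of a library the module was at 8503 and 4552 CPM, a log2 ratio of -0.90 (-0.91 to -0.90), which lies further from 0 than that of any of these 5 classes, and the neutrophil-like share of cells was 65.6% and 4.32%. The sum over all cells holds both this difference in cell shares and the lower levels inside classes, and the part of each was not computed.

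**Figure D1:**
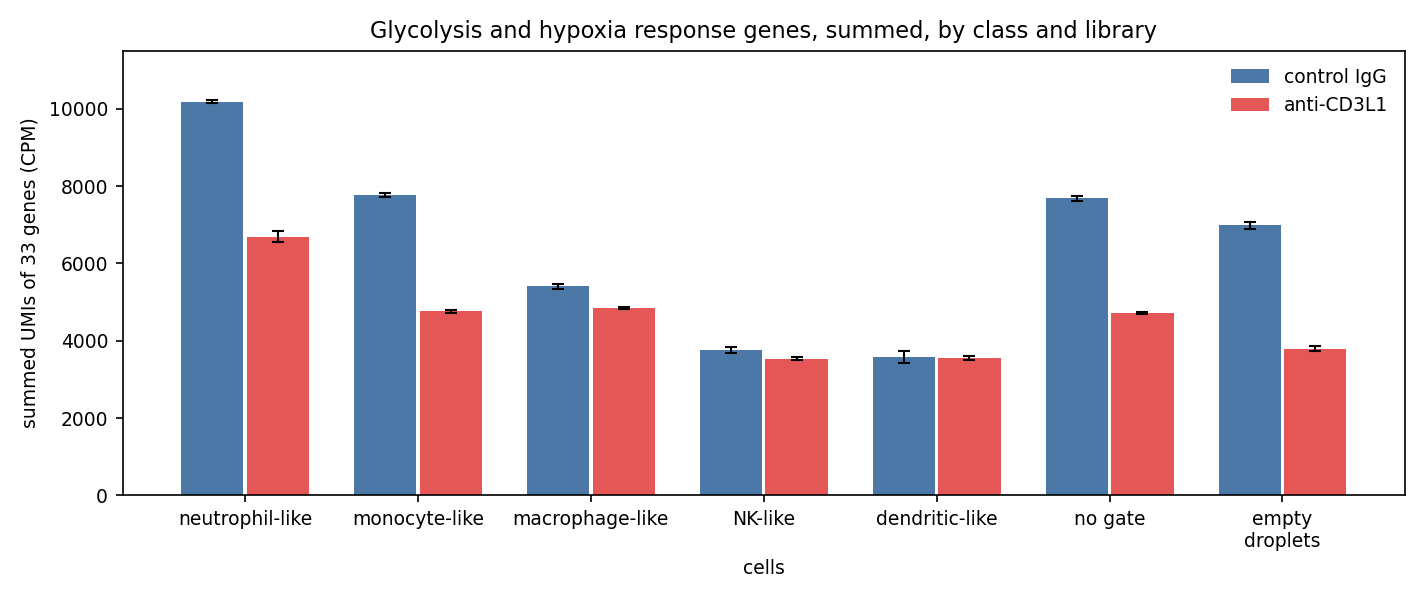
Summed UMIs of the 33 genes per 1000000 UMIs (CPM) in 5 cell classes, in the cells that met no gate and in empty droplets, with control IgG in blue and anti-CD3L1 in red and exact Poisson 95% intervals for counting error. Neutrophil-like cells fell from 10181 to 6694 CPM and monocyte-like cells from 7768 to 4756 CPM, while NK-like and dendritic-like cells stayed between 3539 and 3759 CPM.

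The same RNA was present outside cells. Droplets of 20 to 100 UMIs, taken as empty, held 6987 and 3796 CPM of the module, a log2 ratio of -0.88 (-0.91 to -0.85). If every S100a8 and S100a9 UMI of a class were such free RNA, it could make up at most 3.28% and 23.0% of the UMIs of monocyte-like cells and at most 1.10% and 6.46% of those of macrophage-like cells. With that upper bound subtracted, the log2 ratio of the module was -0.65 in monocyte-like and -0.13 in macrophage-like cells. Cells that met no gate, 858 and 2161 of them, held 7679 and 4713 CPM, a log2 ratio of -0.70 (-0.72 to -0.69).

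Single cells of a class varied widely in the share of their UMIs that came from the module. The median neutrophil-like cell held 89.2 module UMIs per 10000 with control IgG and 53.1 with anti-CD3L1, and the middle 80% of cells ran from 44.6 to 173 and from 22.9 to 146. For monocyte-like cells the medians were 68.3 and 42.8, with ranges of 38.3 to 126 and 27.0 to 71.8. For macrophage-like cells the medians were 42.3 and 41.0, and the upper decile went from 98.5 to 78.1. The distributions overlapped in all 3 classes, and in macrophage-like cells the medians lay close together while the cells with the largest shares differed.

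**Figure D2:**
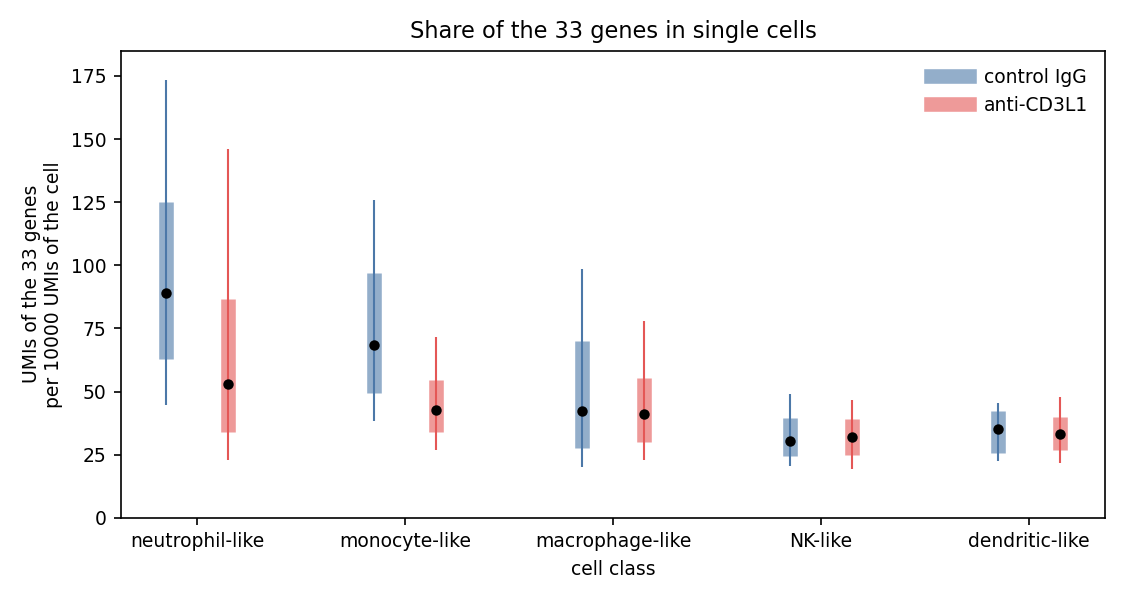
UMIs of the 33 genes per 10000 UMIs of each cell, by class and library. Black points are medians over cells, thick bars the middle 50% and thin lines the middle 80% of cells, and the median of neutrophil-like cells was 89.2 with control IgG and 53.1 with anti-CD3L1.

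Counted gene by gene, 17 of 31 members tested in neutrophil-like cells were at least 1.5-fold lower and 2 were higher, against 6.55% and 40.7% of all 5283 genes tested there. In monocyte-like cells 19 of 28 members were lower and 0 higher, against 4.75% and 12.8% of 7159 genes. With free RNA subtracted, 16 were lower and 2 higher there, and Gapdh (-0.54), Pkm (-0.57) and P4ha1 (-0.55) were no longer past 1.5-fold, while with clusters 20 were lower and 2 higher. Shares of all genes were not computed for these settings. Over the 13 settings tried in monocyte-like cells, Pgam1 (-0.34) and Eno1 (-0.55) also came short of 1.5-fold under at least 1 of them. Among these settings, centring on the median gene was not applied to the ratios of single genes. In macrophage-like cells 9 of 27 were lower and 2 higher, against 6.17% and 5.92% of 7540 genes. The median log2 ratio of the tested members was -0.69, -0.82 and -0.25 in these classes, and that of all tested genes 0.43, 0.17 and 0.028. Set against the median gene of the class, 25 members were lower and 2 higher in neutrophil-like cells, 21 and 0 in monocyte-like cells, and 10 and 1 in macrophage-like cells. No share of all genes past the fold was computed on that scale, so these counts stand without a background. The scale mattered most in neutrophil-like cells, where the module ratio was -1.04 when centred on the median gene. It was -0.72 with ribosomal, mitochondrial, S100a8 and S100a9 UMIs left out of the total. The 10 neutrophil markers took 183935 CPM there with control IgG and 101764 CPM with anti-CD3L1, and the median cell held 4524 and 2140 UMIs. The part of these differences in the scale was not tested. At 2-fold or more, 7 members were lower and 2 higher in neutrophil-like cells (3.09% and 19.8% of all genes tested), 11 and 0 in monocyte-like cells (1.89% and 3.59%) and 2 and 0 in macrophage-like cells (1.86% and 1.78%). The members lower in all 3 classes, for which no share of all genes was computed, were Bnip3, Ddit4, Ero1l, P4ha1, Pfkfb3 and Pfkl. Of these, Ddit4, Ero1l, P4ha1 and Pfkl came short of the macrophage-like call under other settings given below, and P4ha1 of the monocyte-like call. For Ddit4 and Pfkl these settings include cells of 2000 to 8000 UMIs, with only 65 control IgG cells.

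**Figure D3:**
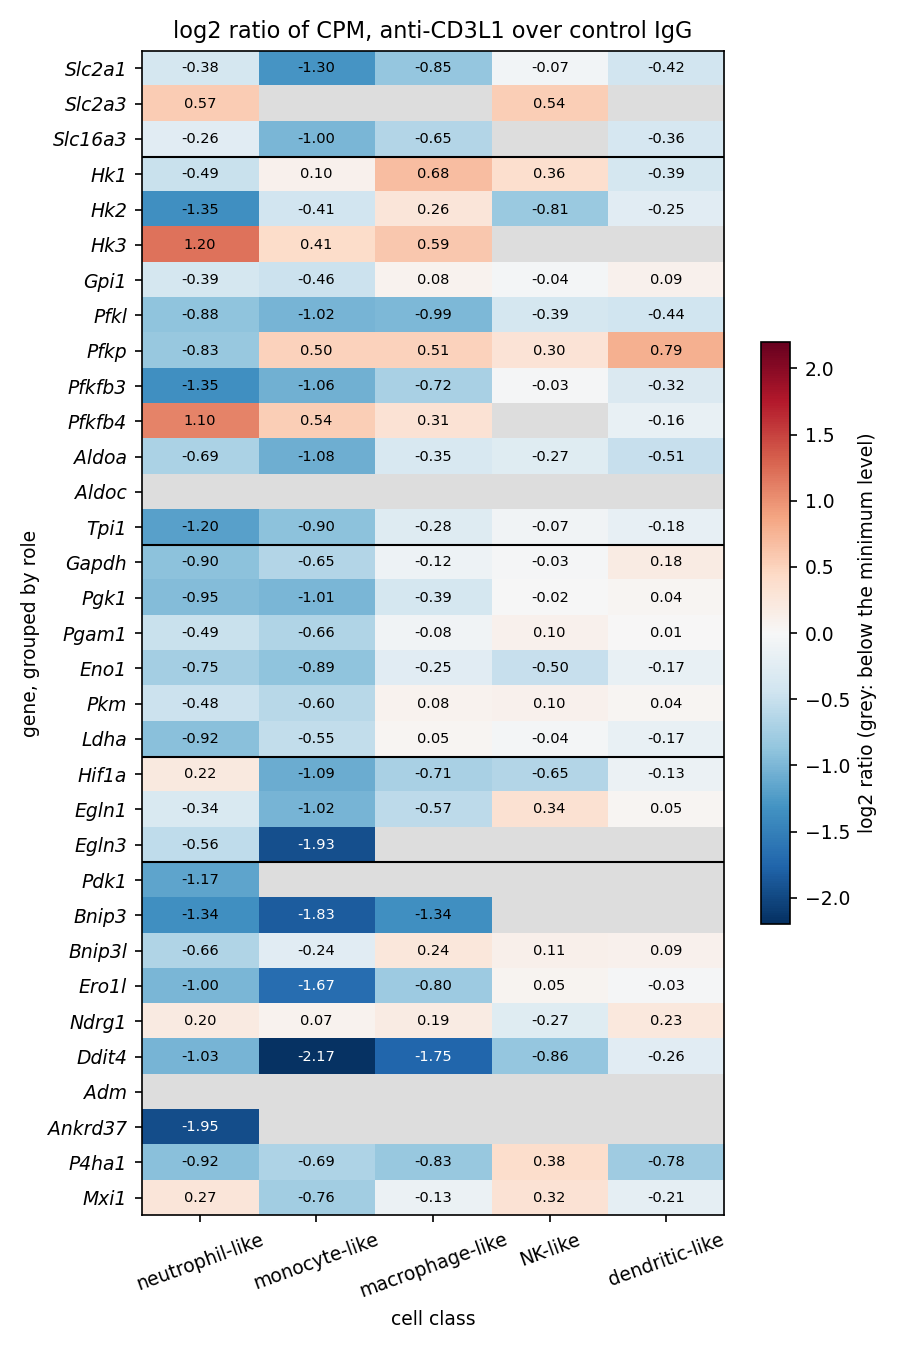
Log2 ratio of CPM, anti-CD3L1 over control IgG, for the 33 genes (rows, grouped by role) in 5 cell classes (columns), with blue for lower and red for higher values and grey where a gene was below the minimum level in a class. Ddit4 in monocyte-like cells, at -2.17, is the lowest ratio shown and Hk3 in neutrophil-like cells, at 1.20, the highest.

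The first group brings glucose in and lets lactate out. Slc2a1, the glucose transporter GLUT1, was at 158 and 64.0 CPM in monocyte-like cells, where it fell (log2 ratio -1.30, -1.40 to -1.21), and at 96.4 and 53.4 CPM in macrophage-like cells, where it also fell (log2 ratio -0.85, -0.99 to -0.71). Slc16a3, the lactate exporter MCT4, fell in the same classes, from 196 to 98.1 CPM in monocyte-like cells (log2 ratio -1.0, -1.08 to -0.92) and from 67.1 to 42.8 CPM in macrophage-like cells (log2 ratio -0.65, -0.81 to -0.48). In neutrophil-like cells neither passed 1.5-fold, with Slc2a1 at 352 and 271 CPM (log2 ratio -0.38, -0.54 to -0.22) and Slc16a3 at 746 and 624 CPM (log2 ratio -0.26, -0.36 to -0.15). Both carriers thus moved past the threshold in monocyte-like and macrophage-like cells, and their neutrophil-like ratios were nearer 0 than the -0.69 median of the members there. Relative to the median gene of the class, Slc2a1 (-0.81) and Slc16a3 (-0.69) were also lower in neutrophil-like cells, with no background computed on that scale. Slc2a3, the high-affinity glucose transporter GLUT3, was at 167 and 247 CPM in neutrophil-like cells (log2 ratio 0.57, 0.39 to 0.73), just under the threshold. Its level in monocyte-like cells was 3.06 and 3.79 CPM and in macrophage-like cells 2.98 and 2.33 CPM, so among these 3 classes its counts lay mostly in neutrophil-like cells. Empty droplets held 314 and 60.7 CPM of Slc16a3 and 174 and 57.0 CPM of Slc2a1.

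Shares of cells with a UMI, after each cell was thinned to 1000 UMIs, showed the same contrast for Slc16a3. It was seen in 47.0% of neutrophil-like cells (45.7 to 48.4%) with control IgG and 42.9% (38.3 to 47.6%) with anti-CD3L1, and in 17.0% (14.9 to 19.3%) and 8.86% (7.82 to 9.98%) of monocyte-like cells. In NK-like cells, shown as a class with a low level of this carrier, the shares were 0.690% and 0.831%, at median depths of 10937 and 8493 UMIs before thinning. Without thinning, the neutrophil-like shares were 85.9% and 70.5% and the NK-like shares 6.21% and 5.58%. Cells under 1000 UMIs, which thinning leaves out, numbered 126 and 30 in neutrophil-like, 0 and 2 in monocyte-like and 0 and 2 in NK-like cells.

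The upper pathway, from glucose to the triose phosphates, held the members whose isoforms moved apart. Hexokinase traps glucose in the cell, and of its isoforms Hk2 fell in neutrophil-like cells from 211 to 82.8 CPM (log2 ratio -1.35, -1.65 to -1.06) while Hk3 rose from 64.1 to 147 CPM (log2 ratio 1.20, 0.97 to 1.42). Hk1 was at 63.9 and 45.5 CPM there (log2 ratio -0.49, -0.90 to -0.10). In macrophage-like cells Hk1 rose from 50.3 to 80.8 CPM (log2 ratio 0.68, 0.51 to 0.86) and Hk3 from 54.1 to 81.8 CPM (log2 ratio 0.59, 0.43 to 0.77), with Hk2 at 175 and 210.1 CPM. In monocyte-like cells none of the 3 passed the threshold, with Hk2 at 204 and 153 CPM, Hk1 at 61.8 and 66.1 CPM and Hk3 at 52.0 and 69.0 CPM. Hk2 was thus the member of the 3 that fell in neutrophil-like cells and Hk3 the one that rose.

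Phosphofructokinase and the enzymes that set its activator showed a similar split. Pfkfb3 makes fructose 2,6-bisphosphate, the strongest activator of phosphofructokinase, and fell in neutrophil-like cells from 425 to 167 CPM (log2 ratio -1.35, -1.55 to -1.15), in monocyte-like cells from 134 to 64.3 CPM (log2 ratio -1.06, -1.16 to -0.97) and in macrophage-like cells from 102 to 61.8 CPM (log2 ratio -0.72, -0.85 to -0.58). Pfkfb4, a relative with both kinase and phosphatase activity, rose in neutrophil-like cells from 59.6 to 127 CPM (log2 ratio 1.10, 0.85 to 1.34) and was at 25.2 and 36.7 CPM in monocyte-like and 27.9 and 34.6 CPM in macrophage-like cells. Pfkl, the liver-type subunit of phosphofructokinase, fell from 117 to 63.7 CPM in neutrophil-like (log2 ratio -0.88, -1.22 to -0.55), from 53.7 to 26.5 CPM in monocyte-like (log2 ratio -1.02, -1.17 to -0.87) and from 56.2 to 28.3 CPM in macrophage-like cells (log2 ratio -0.99, -1.17 to -0.81). Pfkl and Pfkfb3 therefore fell in all 3 classes. Pfkp, the platelet-type subunit, fell in neutrophil-like cells from 199 to 112 CPM (log2 ratio -0.83, -1.09 to -0.58) but was at 84.2 and 119 CPM in monocyte-like (log2 ratio 0.50, 0.40 to 0.60) and 72.9 and 103 CPM in macrophage-like cells (log2 ratio 0.51, 0.36 to 0.66), both just under a 1.5-fold rise. In dendritic-like cells it rose from 198 to 343 CPM (log2 ratio 0.79, 0.51 to 1.09).

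The rest of the upper pathway isomerizes and splits the sugar. Aldoa, the main aldolase, fell from 809.7 to 503 CPM in neutrophil-like cells (log2 ratio -0.69, -0.81 to -0.57) and from 673 to 319 CPM in monocyte-like cells (log2 ratio -1.08, -1.12 to -1.04), and was at 516 and 405 CPM in macrophage-like cells. Tpi1, which interconverts the triose phosphates, fell from 401 to 175 CPM (log2 ratio -1.20, -1.40 to -1.0) and from 349.6 to 187 CPM (log2 ratio -0.90, -0.96 to -0.84) in the same classes, and was at 311 and 256 CPM in macrophage-like cells. Gpi1, glucose-6-phosphate isomerase, did not pass 1.5-fold in any of the 3, with 239 and 183 CPM, 240.2 and 174 CPM and 182 and 193 CPM. Aldolase and triose isomerase thus fell in 2 of the 3 classes and the isomerase before them in none. Aldoc, the brain-type aldolase, had 71 and 1 UMIs in neutrophil-like, 83 and 59 in monocyte-like and 15 and 120 in macrophage-like cells, below the minimum level. In all, 6 of 10 tested upper members were lower and 2 higher in neutrophil-like cells (6.55% and 40.7% of all genes tested), 4 and 0 of 10 in monocyte-like cells (4.75% and 12.8%) and 2 and 2 of 10 in macrophage-like cells (6.17% and 5.92%).

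Of the 6 enzymes of the lower pathway, from glyceraldehyde 3-phosphate to lactate, 4 were lower in neutrophil-like cells, 5 in monocyte-like cells and 0 in macrophage-like cells. Of all genes tested, 6.55%, 4.75% and 6.17% were lower in these classes, so the 0 in macrophage-like cells lies near the share of all genes. Gapdh, which reduces NAD+ and gave 16.4% and 20.2% of all module UMIs over all cells, fell from 1471 to 787 CPM in neutrophil-like (log2 ratio -0.90, -1.0 to -0.81) and from 1458 to 929 CPM in monocyte-like cells (log2 ratio -0.65, -0.68 to -0.62). Pgk1, the first ATP-forming step, fell from 361 to 186 CPM (log2 ratio -0.95, -1.15 to -0.76) and from 419.6 to 208 CPM (log2 ratio -1.01, -1.07 to -0.96). Eno1, enolase, fell from 352 to 209 CPM (log2 ratio -0.75, -0.94 to -0.57) and from 421 to 228 CPM (log2 ratio -0.89, -0.94 to -0.84). These 3 enzymes were lower in both classes, and their ratios ran from -0.95 to -0.75 in neutrophil-like and from -1.01 to -0.65 in monocyte-like cells. Ldha, which turns pyruvate into lactate, fell in neutrophil-like cells from 759 to 402 CPM (log2 ratio -0.92, -1.05 to -0.79) and was at 476 and 326 CPM in monocyte-like cells (log2 ratio -0.55, -0.59 to -0.50). Pgam1, phosphoglycerate mutase, was at 392 and 279 CPM in neutrophil-like cells and fell in monocyte-like cells from 306 to 193 CPM (log2 ratio -0.66, -0.72 to -0.60). Pkm, pyruvate kinase, was at 787 and 565 CPM and in monocyte-like cells fell from 788 to 519 CPM (log2 ratio -0.60, -0.64 to -0.57).

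In macrophage-like cells none of the 6 lower enzymes passed 1.5-fold, where 6.17% of all genes tested were lower and 5.92% higher. Their log2 ratios ran from -0.39 for Pgk1 to 0.078 for Pkm, with Gapdh at 1095 and 1009 CPM, Ldha at 369.9 and 382 CPM and Pkm at 444 and 469 CPM. Without Gapdh, the module ratio was -0.56 (-0.59 to -0.53) in neutrophil-like, -0.72 (-0.73 to -0.71) in monocyte-like and -0.17 (-0.19 to -0.15) in macrophage-like cells. Some members have near-identical copies in the genome. Over all cells the copy Eno1b had 518 and 607 UMIs beside 24399 and 19127 of Eno1, and a further feature also named Aldoa had 4 and 9 UMIs beside 48292 and 33105. How reads were split between such copies was not tested.

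**Figure D4:**
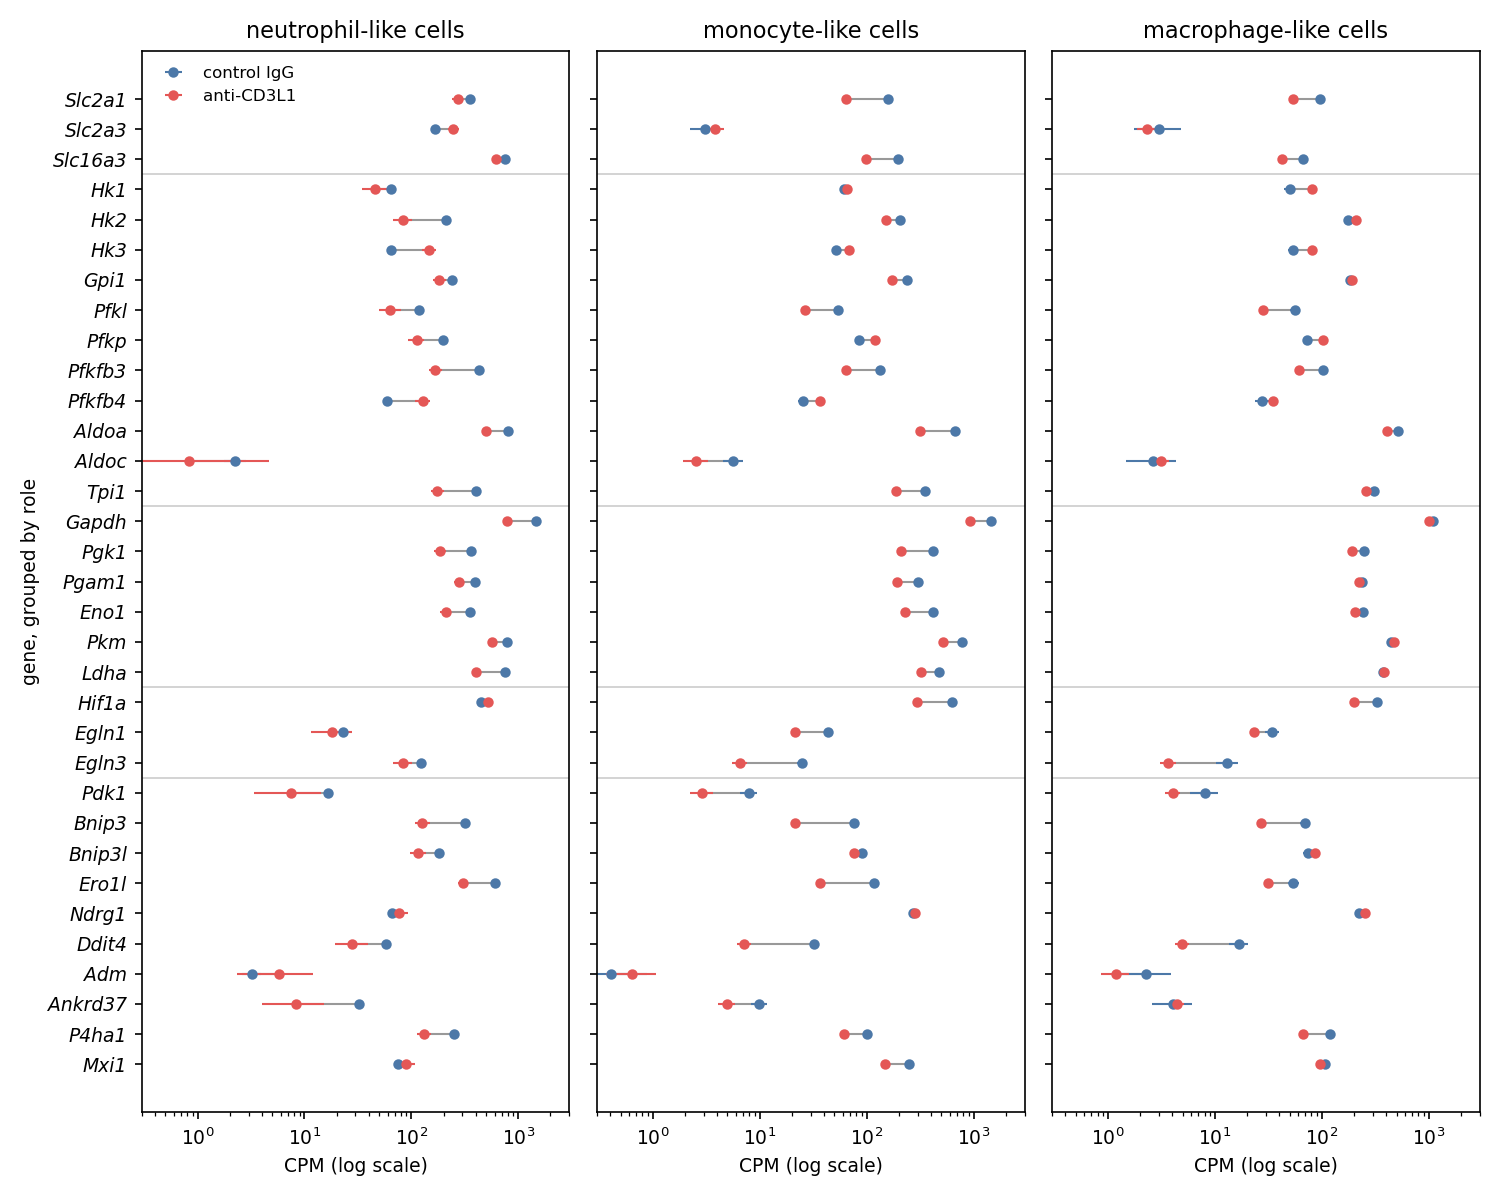
CPM (log axis) of each of the 33 genes in neutrophil-like, monocyte-like and macrophage-like cells, with control IgG in blue, anti-CD3L1 in red, a grey line joining the pair and exact Poisson 95% intervals. Hif1a lies at 450.1 and 524 CPM in neutrophil-like cells and at 636 and 298 CPM in monocyte-like cells, while Slc2a3 lies under 5 CPM in monocyte-like and macrophage-like cells.

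Hif1a encodes the oxygen-regulated subunit of HIF-1, whose control is mostly at the protein, which was not measured. Its RNA fell in monocyte-like cells from 636 to 298 CPM (log2 ratio -1.09, -1.14 to -1.05) and in macrophage-like cells from 328 to 200.3 CPM (log2 ratio -0.71, -0.79 to -0.64), and was at 450.1 and 524 CPM in neutrophil-like cells (log2 ratio 0.22, 0.10 to 0.33). NK-like cells also had less, with a fall from 275 to 176 CPM (log2 ratio -0.65, -0.80 to -0.50). The Hif1a ratio thus lay below -0.6 in 3 classes and above 0 in neutrophil-like cells, where the module itself fell. Egln1 encodes PHD2, the main oxygen sensor that marks HIF-1α, and fell in monocyte-like cells from 43.7 to 21.5 CPM (log2 ratio -1.02, -1.19 to -0.85), with 23.0 and 18.2 CPM in neutrophil-like and 34.3 and 23.1 CPM in macrophage-like cells. Egln3 encodes PHD3, a hydroxylase that HIF itself induces, and fell in monocyte-like cells from 24.8 to 6.51 CPM (log2 ratio -1.93, -2.22 to -1.65). In neutrophil-like cells it was at 122 and 82.8 CPM (log2 ratio -0.56, -0.86 to -0.28). In macrophage-like cells it was at 13 and 3.67 CPM, from 74 and 140 UMIs and below the minimum level. All 3 genes of this group were lower in monocyte-like cells and none in neutrophil-like cells, against 4.75% and 6.55% of all genes tested there. Relative to the median gene of the class, Egln1 (-0.769) and Egln3 (-0.996) were also lower in neutrophil-like cells, with no background computed on that scale.

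Among tested members, the hypoxia response genes held the largest fall in each of the 3 classes. These were the falls of Ddit4 in monocyte-like and macrophage-like cells and of Ankrd37 in neutrophil-like cells. All of them passed the filter on the mean only through their control IgG level. Ddit4, a stress-induced inhibitor of mTORC1, fell from 32.4 to 7.20 CPM in monocyte-like (log2 ratio -2.17, -2.44 to -1.92), from 16.6 to 4.95 CPM in macrophage-like (log2 ratio -1.75, -2.11 to -1.38) and from 57.4 to 28.1 CPM in neutrophil-like cells (log2 ratio -1.03, -1.56 to -0.54). Bnip3, a mitochondrial outer membrane protein that drives mitophagy, fell from 321 to 127 CPM in neutrophil-like (log2 ratio -1.34, -1.58 to -1.11), from 75.8 to 21.3 CPM in monocyte-like (log2 ratio -1.83, -1.98 to -1.67) and from 69.0 to 27.2 CPM in macrophage-like cells (log2 ratio -1.34, -1.51 to -1.17). Ero1l, the oxidase that serves disulfide formation in the endoplasmic reticulum, fell from 605 to 303 CPM (log2 ratio -1.0, -1.15 to -0.85), from 116 to 36.6 CPM (log2 ratio -1.67, -1.79 to -1.55) and from 54.3 to 31.3 CPM (log2 ratio -0.80, -0.98 to -0.61) in these classes. These 3 genes fell in each class, and for all of them the lowest ratio was in monocyte-like cells. P4ha1, a collagen prolyl hydroxylase subunit, fell from 249.6 to 132 CPM (log2 ratio -0.92, -1.16 to -0.70), from 99.9 to 62.1 CPM (log2 ratio -0.69, -0.79 to -0.58) and from 119 to 66.7 CPM (log2 ratio -0.83, -0.96 to -0.71) in the same order. Their promoters are those printed above, of which Bnip3 holds ACGTG on both strands.

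Of the other genes of this group, each was called lower in 1 of the 3 classes or in none. Ndrg1, a hypoxia-induced differentiation gene, was at 66.1 and 76.2 CPM in neutrophil-like, 270.2 and 285 CPM in monocyte-like and 222 and 252 CPM in macrophage-like cells, within 1.5-fold in each. Bnip3l, the relative of Bnip3 also called NIX, fell in neutrophil-like cells from 183 to 116 CPM (log2 ratio -0.66, -0.91 to -0.42) but was at 90.4 and 76.4 CPM and 73.6 and 87.1 CPM in the others. Mxi1, a repressor that opposes Myc, fell in monocyte-like cells from 250.1 to 148 CPM (log2 ratio -0.76, -0.83 to -0.69), with 74.4 and 89.4 CPM in neutrophil-like and 106 and 96.7 CPM in macrophage-like cells. No member of this group was called higher in these 3 classes. Of all genes tested, 40.7% were higher in neutrophil-like, 12.8% in monocyte-like and 5.92% in macrophage-like cells. Pdk1, the kinase that keeps pyruvate out of mitochondria, fell in neutrophil-like cells from 16.7 to 7.45 CPM on 526 and 9 UMIs (log2 ratio -1.17, -2.30 to -0.23). Ankrd37, an ankyrin repeat gene induced by HIF, fell there from 32.1 to 8.28 CPM on 1009 and 10 UMIs (log2 ratio -1.95, -3.02 to -1.07). In monocyte-like and macrophage-like cells both were below the minimum level and were not tested, with Pdk1 at 7.96 and 2.89 CPM and 8.06 and 4.04 CPM and Ankrd37 at 9.93 and 4.91 CPM and 4.03 and 4.46 CPM. Adm, the vasodilator peptide adrenomedullin, had 101 and 7 UMIs in neutrophil-like, 6 and 15 in monocyte-like and 13 and 45 in macrophage-like cells and was below the minimum level in each.

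Thinned to 1000 UMIs, Bnip3 was seen in 24.5% of neutrophil-like cells (23.4 to 25.7%) with control IgG and in 9.85% (7.27 to 13%) with anti-CD3L1, and without thinning in 59.5% and 21.0%. In monocyte-like cells the thinned shares were 6.35% (5.02 to 7.90%) and 2.19% (1.67 to 2.81%), and in macrophage-like cells 7.38% (5.07 to 10.3%) and 2.27% (1.82 to 2.79%). NK-like cells gave 1.38% (0.167 to 4.89%) and 0.356% (0.0735 to 1.04%). Empty droplets held 139 and 21.7 CPM of Bnip3 and 251 and 35.7 CPM of Ero1l, so the free RNA also held fewer of these molecules with anti-CD3L1. For Bnip3, the fall was seen in the share of cells at equal depth as well as in CPM.

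The level of a member also differed between classes of the same library. With control IgG, 22 of the 33 members had their highest CPM of the 5 classes in neutrophil-like cells, 9 in monocyte-like cells (Aldoc, Egln1, Eno1, Gpi1, Hif1a, Mxi1, Ndrg1, Pgk1 and Pkm), 0 in macrophage-like cells, 1 in NK-like cells (Ddit4) and 1 in dendritic-like cells (Adm). With anti-CD3L1, 20 were highest in neutrophil-like cells, 3 in monocyte-like cells and 5 in macrophage-like cells (Gapdh, Gpi1, Hk1, Hk2 and Tpi1). These counts include members below the minimum level, and no such count was made over all genes, so they stand without a background. Some of these orders rest on overlapping intervals. Adm, with control IgG, was at 7.48 (2.04 to 19.1) CPM in dendritic-like cells, on 4 UMIs, and at 3.21 (2.62 to 3.90) CPM in neutrophil-like cells. With control IgG, Pkm was at 787 CPM in neutrophil-like and 788 CPM in monocyte-like cells, Hk1 at 63.9 (61.1 to 66.7) and 61.8 (57.9 to 66.0) CPM, and Hk2 at 211 (206 to 216) and 204 (197 to 212) CPM.

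In NK-like cells 3 of 24 tested members were lower and 0 higher, against 4.22% and 10.2% of 7650 genes. They were Ddit4, from 80.2 to 44.3 CPM (log2 ratio -0.86, -1.14 to -0.57), Hk2, from 85.8 to 49.0 CPM (log2 ratio -0.81, -1.08 to -0.53), and Hif1a, given above. Pfkfb3, lower in the 3 myeloid classes, was at 138 and 135 CPM here, and Ero1l at 49.6 and 51.5 CPM. In dendritic-like cells, with 35 and 392 cells, 1 of 25 was lower and 1 higher, against 10.1% and 13.7% of 7290 genes, namely P4ha1, from 84.1 to 49.1 CPM (log2 ratio -0.78, -1.24 to -0.28), and Pfkp. The 5 calls in these classes thus include Hif1a, Ddit4 and P4ha1, which also fell in monocyte-like and macrophage-like cells. Plasmacytoid-like cells numbered 5 and 91, and there 0 of 11 tested members were lower and 5 higher, against 12.8% and 33.6% of 2911 genes, on 1 to 5 control IgG UMIs each. In cells that met no gate, 19 of 28 were lower and 1 higher, against 9.82% and 12.6% of 7750 genes.

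Markers of other cells and states moved with the libraries inside the classes. In monocyte-like cells the summed neutrophil markers, all 10 detected in both libraries, were at 2544 and 557 CPM, and the summed macrophage markers, 9 of 9 detected, at 1645 and 3531 CPM. In monocyte-like cells with fewer than 30 neutrophil marker UMIs per 10000 the module ratio was -0.66, with 18 members lower and 0 higher. The shares of all genes were not computed for these cells. In macrophage-like cells genes of stress on dissociation, such as Fos and Jun, were at 12269 and 6003 CPM and the neutrophil markers at 922 and 192 CPM. In neutrophil-like cells the stress genes were at 4251 and 7214 CPM and the macrophage markers, 9 of 9 detected, at 148 and 841 CPM. The part of the stress genes and of the macrophage markers in these results was not tested.

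Subsets of the classes gave the same direction in neutrophil-like and monocyte-like cells. Among neutrophil-like cells the module ratio was -0.53 (-0.57 to -0.48) with at least 10 UMIs per 10000 of Retnlg, a marker of mature neutrophils, and -0.72 (-0.77 to -0.67) with fewer. Among monocyte-like cells it was -0.74 (-0.75 to -0.72) with a UMI of Vcan, a marker of classical monocytes, and -0.63 (-0.65 to -0.61) without. Among macrophage-like cells it was -0.036 (-0.066 to -0.0061) with a UMI of Folr2, a marker of resident-like macrophages, and -0.24 (-0.26 to -0.22) without. In Folr2 macrophage-like cells the glycolysis members were at 4117 and 4268 CPM and the HIF and hypoxia members at 1021 and 744 CPM. In these 133 and 1478 cells the 2 branches of the module thus had log2 ratios of 0.052 (0.019 to 0.085) and -0.46 (-0.53 to -0.39). No median gene or share of all genes was computed for this subset. The same order was seen without a Folr2 UMI (-0.22 and -0.33) and over all macrophage-like cells (-0.11 and -0.39). Cells with a Folr2 UMI were deeper, with medians of 15017 and 10844.5 UMIs against 13050.5 and 8718.5 without.

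The macrophage-like result depended on the depth of the cells. In cells of 2000 to 8000 UMIs, 65 with control IgG and 1134 with anti-CD3L1, the module ratio was 0.060 (-0.015 to 0.14), with 3 members lower and 4 higher, whereas it was -0.61 in neutrophil-like and -0.75 in monocyte-like cells of that depth. Shares of all genes past the fold were not computed at that depth. There the macrophage-like ratio of Ddit4 was 0.31, that of Pfkl 0.051 and that of Egln1 0.63. No interval was computed for these single genes, and the minimum level was not applied again at that depth. Ddit4 had only 95 UMIs over all 421 control IgG cells of the class. Whether the falls of Ddit4 and Pfkl were absent at that depth therefore cannot be told. Over the 13 settings tried, 7 of the 9 falls in macrophage-like cells came short of 1.5-fold under at least 1 of them. Among these settings, centring on the median gene was not applied to the ratios of single genes. Beside Ddit4 and Pfkl, the ratio nearest 0 was -0.12 for P4ha1, -0.32 for Ero1l, -0.44 for Slc2a1, -0.50 for Hif1a and -0.54 for Slc16a3. Bnip3 stayed between -1.53 and -1.30 and Pfkfb3 between -1.16 and -0.69. Of the 2 rises, Hk1 stayed between 0.63 and 0.79 and Hk3 reached 0.36. The median macrophage-like cell held 13591 and 9562 UMIs.

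**Figure D5:**
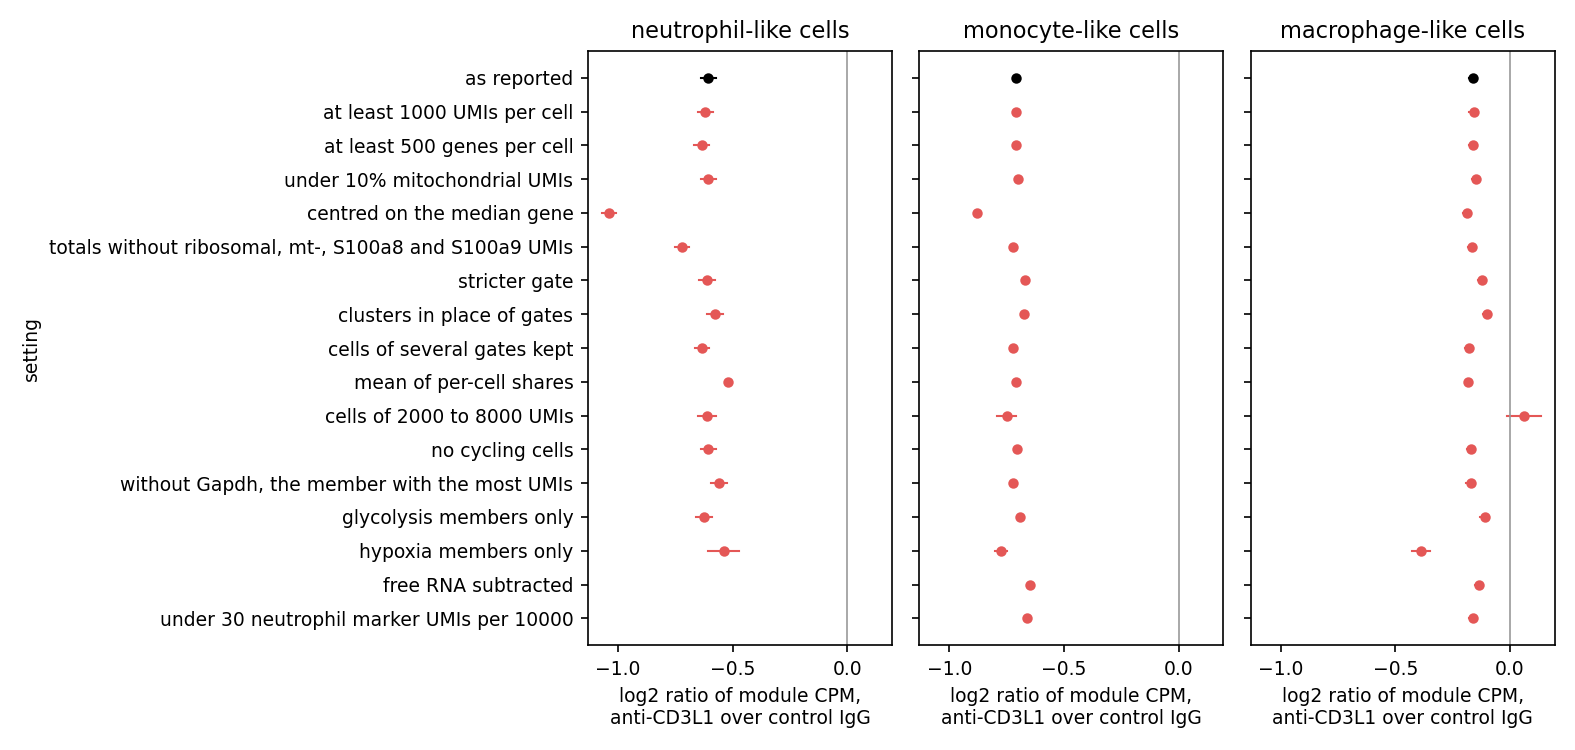
Log2 ratio of the summed module, anti-CD3L1 over control IgG, in 3 cell classes (panels) under each setting (rows), with the reported value in black and 95% intervals for counting error as lines where they could be computed. Values lie from -1.04 to -0.52 in neutrophil-like and from -0.88 to -0.65 in monocyte-like cells, and macrophage-like cells pass 0 in cells of 2000 to 8000 UMIs.

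Other genes of the pathways, from lists chosen by function, were called in both directions in neutrophil-like and macrophage-like cells. Of 34 other HIF targets and regulators, 7 of 20 tested were lower and 4 higher in neutrophil-like, 3 and 0 of 19 in monocyte-like and 5 and 2 of 23 in macrophage-like cells. Over all genes tested the lower and higher shares were 6.55% and 40.7%, 4.75% and 12.8%, and 6.17% and 5.92% in these classes. In neutrophil-like cells Fam162a, a mitochondrial HIF target, was at 402 and 107 CPM (-1.91, -2.17 to -1.66) and Higd1a, a respiratory chain regulator, at 271 and 90.2 CPM (-1.58, -1.87 to -1.31). Gys1 was at 33.6 and 13.2 CPM there (-1.34, -2.15 to -0.64) and Mif at 399 and 165 CPM (-1.27, -1.48 to -1.07). Cited2, which competes with HIF for its coactivator, was at 120.4 and 288 CPM in the same cells (1.26, 1.10 to 1.42). Vegfa, the angiogenic growth factor and a known HIF target, was at 50.9 and 91.9 CPM (0.85, 0.56 to 1.13) in neutrophil-like and 181 and 150.2 CPM (-0.27, -0.34 to -0.19) in monocyte-like cells. Relative to the median gene, 9 of these 20 genes were lower and 2 higher in neutrophil-like cells, Cited2 stayed higher and Vegfa was within 1.5-fold. The share of all genes on that scale was not computed, here or for the counts relative to the median gene below. Hmox1, heme oxygenase, was at 625 and 276 CPM (-1.18, -1.24 to -1.13) in macrophage-like and 272 and 157 CPM (-0.79, -0.86 to -0.73) in monocyte-like cells. Of 23 other isoforms and glycolysis genes, 2 of 5 tested were lower in neutrophil-like, 2 of 7 in monocyte-like and 0 of 7 in macrophage-like cells, where 1 was higher, with Pgm1, phosphoglucomutase, at 48.9 and 6.62 CPM (-2.88, -4.10 to -1.90) in neutrophil-like cells on 8 UMIs with anti-CD3L1. Of 15 genes of the branches that leave glycolysis, 0 were lower in any of the 3 classes and 4 of 10 were higher in neutrophil-like cells, among them Taldo1, transaldolase of the pentose phosphate pathway, at 460.3 and 935 CPM (1.02, 0.93 to 1.11), and Mpc1, a subunit of the mitochondrial pyruvate carrier, at 27.2 and 79.5 CPM (1.55, 1.23 to 1.85). The higher share is close to the 40.7% of all genes there, and relative to the median gene 2 of the 10 were higher and 0 lower.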

How the data were processed

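The values deposited by the authors are UMI counts, 1 matrix of genes and all barcodes for each of the control IgG and anti-CD3L1 libraries, made with Cell Ranger 7.1.0, and their processing notes name the build GRCm39 and Seurat 5.1.0. The authors' table of comparisons, with fold changes, p-values and shares of cells, was not used. The members, lists and markers were chosen with earlier results of these data known.

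Cells were kept with at least 500 UMIs, more than 200 and fewer than 6000 genes and under 5% mitochondrial UMIs, in a library of 74850604 or 108246719 UMIs. Classes were gated on marker UMIs per 10000, with 200 for neutrophil-like, 10 for monocyte-like and NK-like and 5 for macrophage-like and dendritic-like cells, and at least 3 markers detected. For macrophage-like cells only UMIs of C1qa, C1qb and C1qc were set against the threshold. Cells meeting the monocyte and macrophage gates alone were kept as macrophage-like. Cells meeting other sets of several gates were left out, and no doublet caller was run. UMIs were summed per class and library and divided by the total. Levels have exact Poisson and ratios and shares exact binomial 95% intervals. UMIs limit amplification bias, and these intervals leave out variation between cells, tumors and libraries. A gene was tested, meaning compared with the fold threshold, at a mean of at least 10 CPM and 50 UMIs in all. With 1 library per group no p-value was computed. All 33 members are named, with up to 4 genes of each other list that passed 1.5-fold with the largest ratio, and Cited2 and Vegfa were named after their values were seen. Promoters came from RefSeq (GRCm38.p6), a build other than the one named in the authors' processing notes, matched by symbol. Only the ratios and their intervals were tested on simulated counts, with known folds and the levels of macrophage-like cells. The simulated counts held counting error alone, and the other steps were not simulated. The calculations used Python 3.11.15, scanpy 1.11.5, leidenalg 0.10.2, matplotlib 3.10.9, pandas 2.3.3, scipy 1.17.1 and numpy 2.4.6. Alternatives covered cell filters, gates, clusters, depth, scaling, free RNA, the members summed and the fold.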

Additional observations from a re-analysis of the deposited data

Results flagged for a closer look

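Pfkp, the platelet-type subunit of phosphofructokinase, passed 1.5-fold in opposite directions in 2 classes. With anti-CD3L1 set over control IgG, its log2 ratio was 0.79 in dendritic-like cells and -0.83 in neutrophil-like cells, a gap of 1.6201. The dendritic-like value rests on 35 cells with control IgG and 392 with anti-CD3L1. With 1 library per group the difference between the classes was not tested.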

How the results depend on the processing

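In neutrophil-like cells the log2 ratio of the module, reported as -0.605, was -1.04 centred on the median gene, -0.721 with ribosomal, mitochondrial, S100a8 and S100a9 UMIs left out of the total, -0.576 with clusters, -0.521 as a mean of per-cell shares, -0.56 without Gapdh and -0.538 for the hypoxia members alone. In monocyte-like cells (-0.708) these values were -0.878 when centred, -0.723 with the reduced total, -0.721 without Gapdh, -0.691 for glycolysis members and -0.773 for hypoxia members. There it was also -0.67 with the stricter gate, -0.674 with clusters, -0.724 with cells of several gates kept, -0.749 in cells of 2000 to 8000 UMIs, -0.647 with free RNA subtracted and -0.661 in cells with under 30 neutrophil marker UMIs per 10000. In macrophage-like cells (-0.16) it was -0.188 when centred, -0.121 with the stricter gate, -0.0995 with clusters, -0.179 with cells of several gates kept, -0.184 as a mean of per-cell shares, -0.134 with free RNA subtracted, -0.11 for glycolysis members and -0.387 for hypoxia members. In cells of 2000 to 8000 UMIs it turned to 0.0596, with 7 members past 1.5-fold, and the cause was not tested. At 2-fold, 7 members were lower and 2 higher in neutrophil-like cells, against 3.09% and 19.8% of all genes tested. In monocyte-like cells 11 were lower and 0 higher (1.89% and 3.59%), and in macrophage-like cells 2 and 0 (1.86% and 1.78%). Leaving out cycling cells or cells rich in neutrophil markers was chosen after seeing the data. With 1 library per group no library could be left out. No paired analysis was possible because each group has 1 library. The depth limits members with few UMIs, such as Pdk1 and Ankrd37 with 9 and 10 UMIs in neutrophil-like cells with anti-CD3L1.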
